A study of Homo sapiens with 5 samples.

Results

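The subunits and assembly factors of the proteasome were taken as the protein-coding genes whose GENCODE symbol begins with PSMA, PSMB, PSMC, PSMD, PSME, PSMF or PSMG followed only by a number. They were 48 of the 64252 gene identifiers in the count table, and 43 of them passed the filter on low counts. By role they were 8 alpha subunits, 7 constitutive beta subunits, 4 inducible or thymic beta subunits, 6 ATPases and 3 other subunits of the cap base, 8 subunits of the cap lid, 3 chaperones of the cap, 4 chaperones of the core, and 5 activators or inhibitors of the core.

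The proteasome is the protease that removes most short-lived and damaged proteins of a cell after they have been tagged with ubiquitin. Its core particle is a barrel of stacked alpha and beta rings, and some of the beta subunits carry the active sites inside it. A regulatory cap binds ubiquitin, unfolds the substrate with a ring of ATPases and removes the ubiquitin chain, while dedicated chaperones help to build core and cap. Cells of the immune system, or cells exposed to interferon, replace the catalytic beta subunits with inducible counterparts, which changes the peptides that are shown to T cells.

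RNA was measured in RPE-1, an immortalized human cell line from retinal pigment epithelium, to ask how transcripts change when FAM53C, a regulator of entry into S phase, is depleted. The control condition (siCtrl, 3 libraries) received the ON-TARGET Control #1 siRNA, the knock-down condition (siFAM53C, 2 libraries) a pool of ON-TARGETplus siRNAs against FAM53C, both at 5 µM in wild-type cells with Lipofectamine RNAiMAX. Polyadenylated RNA was collected 48 hr after transfection. The FAM53C gene was intact in both conditions, the siRNAs of the pool were not tested apart in these libraries, and the methods speak of duplicates where 3 control libraries were given. Nothing stated that the libraries came from separate cultures, so the p-values measure the spread between these samples, which may be technical.

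The 5 libraries held 19260124 to 25615415 counts. FAM53C itself had counts of 1434, 1141 and 1099 in siCtrl and 375 and 525 in siFAM53C, as the labels say (log2 fold change -1.71, SE 0.20). The first principal component, 39.8% of the variance, did not follow the siRNA. It placed siCtrl 1 and siCtrl 2 at -31.5 and -47.4, siFAM53C 1 in the middle at 0.3, and siCtrl 3 and siFAM53C 2 at 33.7 and 44.9. In an earlier look at these counts siFAM53C 1 had been grouped with siCtrl 1 and siCtrl 2, against siCtrl 3 and siFAM53C 2. This grouping is called the library split here, and values within its sides are given beside the results, although the component alone does not place siFAM53C 1 on a side. VIM, at 77560 to 91239 counts, and KRT8 and KRT18 were present in every library, while KRT19, listed with them as a marker, had 0 to 5 counts. Also present in every library were MITF (713 to 1053 counts) and OTX2 (281 to 403), factors of the pigment epithelium. Of the markers of its differentiated state PMEL had 13 to 29 counts and BEST1 4 to 15, and RPE65, RLBP1 and TYR were at 0 to 2. The immune markers CD3E and LYZ were at 0 and PTPRC at 2 to 20 counts. In such bulk samples fewer cells of a type and less RNA per cell cannot be told apart.

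The sequences that bear on the results are of 2 kinds, promoter windows and sites in transcripts. Proteasome genes are transcribed together when proteasome activity falls, through NFE2L1, a membrane-bound transcription factor that binds antioxidant response elements, and NF-Y and Sp1 act on many housekeeping promoters. RefSeq promoters on GRCh38.p14, running from 250 bases before to 50 bases after the gene start, were matched for 42 of the 48 genes. The core of the antioxidant response element, TGACNNNGC on either strand, was present in 12 of them (28.6%), against 14.3% of 15365 promoters of the same length. CCAAT, the NF-Y box, was present in 42.9% against 36.6%, and GGGCGG, an Sp1 box, in 69.0% against 61.8%, again on either strand. Below are 30-base windows of 5 proteasome promoters that held the response element core, which is in capitals (or its reverse complement, where the match was on the other strand). They are shown because they are the kind of site through which these genes can be moved together.
PSMC4, cap ATPase, chr19:39971182-39971211, plus strand: acagaggccgGCTTGGTCActatggaggag
PSMD1, cap base, chr2:231056887-231056916, plus strand: ggcggcctgaggaggcgacTGACTGAGCag
PSMD12, cap lid, chr17:67366723-67366752, minus strand: agacaaaaccTGACGCTGCaggctggagtg
PSMG1, core chaperone, chr21:39183615-39183644, minus strand: gcccagggcaTGACAGCGCgggcgggcggt
PSME1, activator, chr14:24136098-24136127, plus strand: atggcagggcTGACCCCGCctcctccatcc

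None of the promoters of the 3 genes that fell in siFAM53C, PSMD10, PSMD2 and PSME3, held the response element core within these 300 bases. Their windows around an NF-Y box (PSMD10, PSME3) or the Sp1 box nearest to the gene start (PSMD2) are given for comparison, with the box in capitals.
PSMD10, chrX:108091601-108091630, minus strand: ggaaggccggtgATTGGtgaagctctaacg
PSMD2, chr3:184299206-184299235, plus strand: gtctgggaaaaaGGGCGGtgcgagcgggtg
PSME3, chr17:42833373-42833402, plus strand: ggagtctcggcgATTGGctgtgacgcagtt
The 10 tested genes with the core in their promoter had a median log2 fold change of -0.14, and 7 were below 0. The 27 tested genes without it had a median of -0.10, and 21 were below 0. The letters describe these windows and say nothing of whether a factor was bound there.

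In control cells the levels for length differed widely within and between the classes. Levels are given as CPM, counts scaled to the size of the library, per kb of the canonical GENCODE transcript, as the mean of the 3 siCtrl libraries. The constitutive beta subunits ran from 49.7 for PSMB2 to 202 for PSMB4, with a median of 139.5, and the alpha subunits had a median of 26.6. The ATPases ran from 15.5 for PSMC1 to 127 for PSMC3, with a median of 54.7. The lid subunits ran from 29.9 for PSMD12 to 113 for PSMD8, with a median of 75.5. PSMD2, the large scaffold of the cap base that receives ubiquitin carriers, had the highest level of all members at 325 ± 33.2 CPM per kb (SD, n = 3), above PSMD4 and PSMD1 of the same base, the latter at 77.2. The chaperones had medians of 12.2 for those of the cap and 24.5 for those of the core, the latter near that of the alpha subunits.

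**Figure D1:**
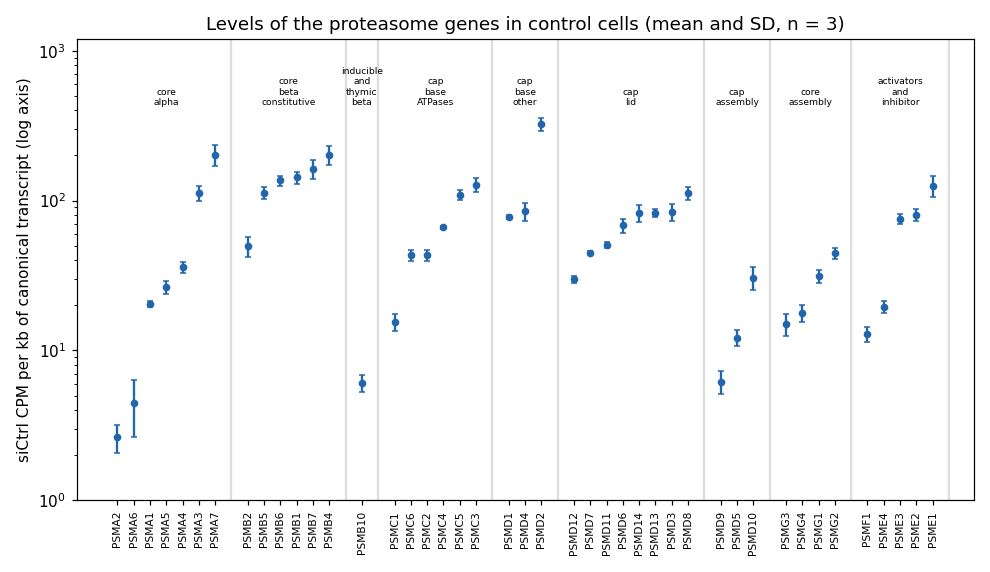
Mean level of the 43 tested proteasome genes in the 3 siCtrl libraries, in CPM per kb of canonical transcript on a log axis, by class; bars are the SD. PSMD2 lies highest at 325 CPM per kb, and PSMA2 (2.63), PSMA6 (4.48) and PSMB10 (6.05) lie far below the other core subunits.

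The alpha subunits form a ring in equal numbers, yet their transcripts ran from 2.63 CPM per kb for PSMA2 to 202 for PSMA7. The low values went with gene models that share exons. All of the canonical transcript of PSMA2 (100%), 81.4% of that of PSMA6 and 67% of that of PSMA1 lay in exons of an overlapping readthrough gene on the same strand, as did 56.1% of that of PSMB10 and 28.8% of that of PSMD9. The readthrough genes themselves held at most 54 counts in any library, which is not small beside PSMB10. The gene that overlaps PSMB10 had 31, 11 and 49 counts in siCtrl and 38 and 54 in siFAM53C. PSMB10 itself had 156, 115 and 97 in siCtrl and 189 and 148 in siFAM53C. Whether reads in shared exons were given to either gene was not tested, so the levels of these 5 genes are uncertain. The fold changes of PSMA2, PSMA6 and PSMB10 rest on few reads. The canonical transcripts of PSMA4, PSMA5, PSMB2, PSMC1 and PSMD12 are long for their class, and which transcript these cells used was not tested.

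The other low genes were those listed at 0. PSMA8, the testis form of an alpha subunit, PSMB11, the thymic beta subunit, and PSMB8 and PSMB9, inducible catalytic subunits, had 0 counts in all 5 libraries. PSMB3, a constitutive beta subunit that every proteasome needs, had 1 count, in siCtrl 2. It lay in a run of 9 neighbouring genes on chromosome 17 (38530031 to 38841438, GRCh38) with at most 2 counts in any library, whereas the next gene, RPL23, had 9163 to 15138. PSMB8 and PSMB9 lie in the major histocompatibility region of chromosome 6, where 108 of 178 protein-coding genes (60.7%) were at 0, against 24.5% of all protein-coding genes. A value of 0 for PSMB3, PSMB8 and PSMB9 is therefore reported as a listed value and not as absent expression, and no fold is given.

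The question of the comparison was which proteasome genes differed between siFAM53C and siCtrl. PSMD10, PSMD2 and PSME3 were lower in siFAM53C, no proteasome gene was higher, and the remaining 40 tested genes did not pass the test. PSMD10 is a chaperone of the cap, PSMD2 a subunit of its base, and PSME3 an activator of the core found in the nucleus. Genes were tested by quasi-likelihood in edgeR, the p-values of 15341 genes were adjusted after Benjamini and Hochberg, and an adjusted p under 0.05 was called. By this rule 3.21% of all genes tested were lower and 0.404% were higher, and the 3 lower members of 43 are to be read against these shares. At an unadjusted p under 0.05, 6 members were lower (PSMC4, PSMD1 and PSMD11 in addition) and 0 were higher, against 10.5% and 6.54% of all genes. No member was called higher by DESeq2 or limma-voom either.

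PSMD10 (chrX:108084207-108091549, minus strand), also called gankyrin, binds a cap ATPase during assembly and also binds CDK4 and MDM2. It had counts of 991, 1025 and 749 in siCtrl and 566 and 536 in siFAM53C. These were 42.1, 53.6 and 39.2 against 21.4 and 22.8 CPM. Both siFAM53C libraries lay close together and below every control, and siCtrl 2 was the highest library. The mean fell from 45.0 ± 7.63 CPM (SD, n = 3) to 22.1 ± 0.96 (n = 2), a log2 fold change of -1.03 with a 95% interval of -1.41 to -0.64 (edgeR quasi-likelihood, Benjamini-Hochberg adjusted p = 0.0194). On the sides of siFAM53C 1 and siFAM53C 2 the differences were -1.15 and -0.78.

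PSMD2 (chr3:184299198-184309050, plus strand) had counts of 23590, 19191 and 15942 in siCtrl and 15571 and 13240 in siFAM53C. These were 1001, 1004 and 835 against 589 and 562 CPM. siCtrl 3 was the lowest control, and both siFAM53C libraries lay well below it. The log2 fold change was -0.72 with a 95% interval of -1.01 to -0.42 (edgeR quasi-likelihood, Benjamini-Hochberg adjusted p = 0.0278). Within the sides it was -0.77 and -0.57.

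PSME3 (chr17:42824385-42843760, plus strand) encodes the nuclear activator that opens the core without ubiquitin or ATP. It had counts of 5577, 4973 and 4273 in siCtrl and 4125 and 3614 in siFAM53C. These were 237, 260 and 224 against 156 and 153 CPM, so the conditions did not overlap and the 2 siFAM53C libraries were nearly equal. The log2 fold change was -0.64 with a 95% interval of -0.90 to -0.37 (edgeR quasi-likelihood, Benjamini-Hochberg adjusted p = 0.0289). Within the sides it was -0.67 and -0.55. PSME3 shares 300 exon bases with BECN1 on the opposite strand, which matters where reads are counted without strand; PSMD10 and PSMD2 share none.

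The 3 calls depended on which libraries were included. With siCtrl 1, siCtrl 2, siFAM53C 1 or siFAM53C 2 left out, 0 members were called, while without siCtrl 3 the calls were 5, PSMD1 and PSMD4 being added. The sizes moved little: over the 5 omissions PSMD10 ran from -1.11 to -0.88, PSMD2 from -0.79 to -0.67 and PSME3 from -0.68 to -0.57.

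**Figure D2:**
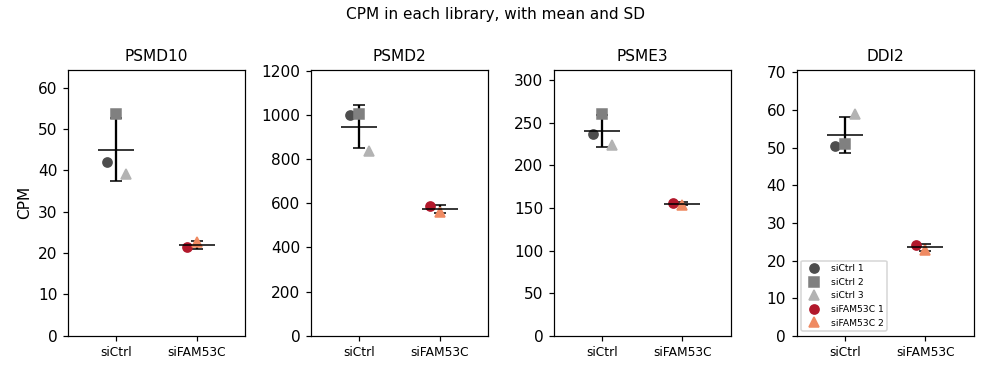
CPM of PSMD10, PSMD2, PSME3 and DDI2 in each library on axes that start at 0; circles and squares are libraries of one side of the split and triangles of the other, and the bar and whiskers are the mean and SD. In each gene both siFAM53C libraries lie below all 3 siCtrl libraries, for PSMD10 at 21.4 and 22.8 against 39.2 to 53.6 CPM.

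Each of the 3 genes also moved against a partner of related function in the same library. The level per kb of PSMD10 was 254%, 264% and 235% of that of PSMD5, another chaperone of the cap base, in siCtrl, and 150% and 155.5% in siFAM53C. PSME3 was at 86.9%, 97.9% and 98.0% of PSME2, a subunit of the interferon-inducible activator, in siCtrl, and at 52.6% and 53.6% in siFAM53C. PSMD2 was at 432%, 446% and 383% of PSMD1, the other large scaffold of the base, in siCtrl, and at 356.5% and 327% in siFAM53C. All 3 ratios were lower in both siFAM53C libraries than in any control, and since they use the same values as the calls they add no test. The partners had log2 fold changes of 0.19 (PSME2), -0.31 (PSMD5) and -0.42 (PSMD1), none of them called. The higher PSME2 value thus adds to the fall of its ratio.

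The members of the base other than the ATPases were the class with the lowest median, -0.42 on the log2 scale. All 3, the called PSMD2 among them, were lower in both siFAM53C libraries than in any control, against 18.8% of all genes tested. PSMD1 had 265, 257 and 249 CPM in siCtrl and 188 and 196 in siFAM53C, a log2 fold change of -0.42 (edgeR quasi-likelihood, Benjamini-Hochberg adjusted p = 0.0814). It was the gene closest to the threshold, and it passed with a term for the library split (adjusted p = 0.00565 by edgeR) and in DESeq2. PSMD4, the ubiquitin receptor, had a log2 fold change of -0.32. Of the 17 cap subunits, base and lid together, 13 were below 0, against 7391 of all 15341 genes tested.

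The ATPases had a median of -0.17, from -0.29 for PSMC1 to 0.042 for PSMC6, and none passed the test. Of the 8 lid subunits 5 were below 0 and the median was -0.089. PSMD11, a lid subunit that limits the number of assembled proteasomes in some cells, had 189, 203.5 and 188.5 CPM in siCtrl and 160 and 149 in siFAM53C. Its log2 fold change of -0.32 did not pass the main test (edgeR quasi-likelihood, Benjamini-Hochberg adjusted p = 0.175) and passed with the term for the library split (adjusted p = 0.0241). PSMD14, the enzyme that cuts the ubiquitin chain from the substrate, was at -0.17 with a 95% interval of -0.50 to 0.15.

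No core subunit passed the test. The 6 tested constitutive beta subunits ran from -0.20 to -0.028 on the log2 scale, with a median of -0.091, and the 7 tested alpha subunits had a median of -0.093. The lowest core subunit, PSMA2, was at -0.53 with a 95% interval of -1.27 to 0.21, and it is one of the genes with shared exons. Among the catalytic subunits PSMB5, the chymotrypsin-like site and the target of bortezomib, had 119.5, 129 and 106 CPM in siCtrl and 122 and 107 in siFAM53C. The log2 fold change was -0.045 with a 95% interval of -0.33 to 0.24. PSMB6, the caspase-like site, had 116, 118 and 102 against 108 and 97.7 CPM. PSMB7, the trypsin-like site, had 162, 182 and 136 against 150.4 and 129 CPM. For all 3 the conditions overlapped, siCtrl 3 being the lowest control each time, and their intervals of difference ran from -0.55 to 0.24 in all.

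The immunoproteasome could be followed only through PSMB10, the inducible counterpart of PSMB7. It had 6.62, 6.02 and 5.08 CPM in siCtrl and 7.14 and 6.28 in siFAM53C, with overlap between the conditions and a log2 fold change of 0.18 (95% interval -0.36 to 0.73). Its level per kb was 3.32% to 4.11% of that of PSMB7 in siCtrl and 4.78% and 4.91% in siFAM53C. These percentages carry the uncertainty of the exons that PSMB10 shares with a readthrough gene, and they were not tested. PSME1 and PSME2, the interferon-inducible activator, had log2 fold changes of -0.11 and 0.19. PSME2 had 67.9, 66.2 and 56.95 CPM in siCtrl and 73.9 and 71.3 in siFAM53C, higher in both, and did not pass the test.

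The chaperones of the core, PSMG1 to PSMG4, had log2 fold changes from -0.17 to 0.28 and none passed the test. PSMG4, at the upper end, had 14.4, 11.98 and 15.45 CPM in siCtrl and 17.4 and 16.5 in siFAM53C. The highest value of all members belonged to PSMA6, at 0.48 with a 95% interval of -0.44 to 1.40, on 104, 53 and 125 counts in siCtrl and 133 and 183 in siFAM53C. PSMA6 is one of the genes with shared exons, and its conditions overlapped. PSMF1, an inhibitor of the core, was at -0.011, and PSME4, an activator linked to the degradation of acetylated histones, at -0.26.

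**Figure D3:**
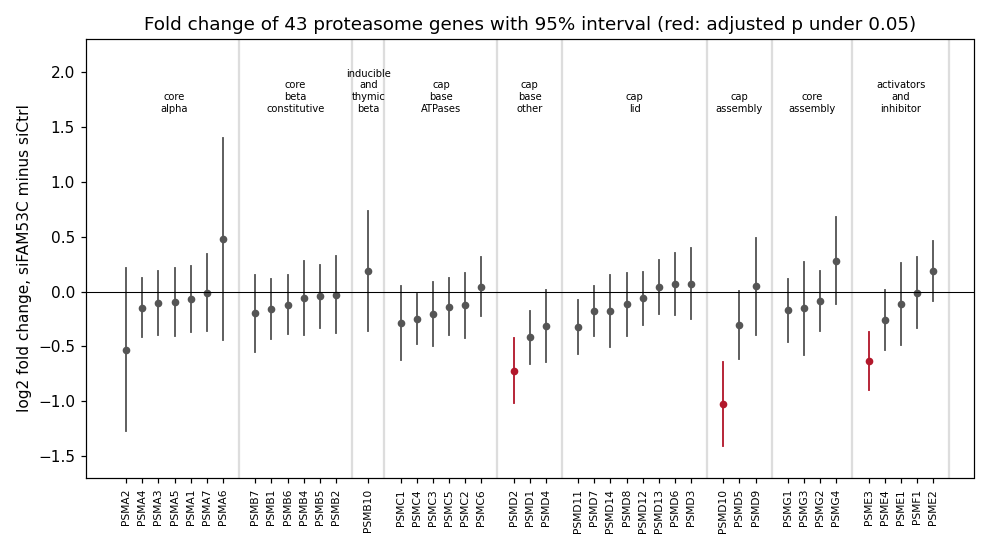
Log2 fold change of the 43 tested proteasome genes, siFAM53C minus siCtrl, with the 95% interval of the edgeR fit, by class; red marks an adjusted p under 0.05. PSMD10 (-1.03), PSMD2 (-0.72) and PSME3 (-0.64) are red, and the intervals of 37 genes include 0.

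As a list, 34 of the 43 tested members were below 0 and 9 above, with a median log2 fold change of -0.12 against 0.016 over all genes tested. In 11 members both siFAM53C libraries lay below all siCtrl libraries, against 18.8% of all genes, and in 2 (PSMG4 and PSME2) both lay above, against 16.7%. The 11 were PSMA2, PSMC4, PSMD1, PSMD2, PSMD4, PSMD5, PSMD7, PSMD10, PSMD11, PSME3 and PSME4, of which 6 are cap base or lid subunits and 1 is a core subunit. The median was -0.175 for the 17 cap subunits and -0.093 for the 13 tested core subunits, and the difference between these groups was not tested.

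The same list moved by more between control libraries. siCtrl 3 was below the mean of siCtrl 1 and siCtrl 2 in 38 of 43 members, with a median difference of -0.235 on the log2 scale, against 0.002 over all genes tested. The exceptions were PSMA6, PSMD7, PSMD12, PSMG4 and PSME4. Relative to the siCtrl mean the median member stood at 0.040, 0.12 and -0.16 in siCtrl 1, 2 and 3, and at -0.075 and -0.18 in siFAM53C 1 and 2. Within the side of siFAM53C 1 the median difference from its controls was -0.145, and within the side of siFAM53C 2, against siCtrl 3 alone, it was -0.019. The counts on all members made up 0.561%, 0.582% and 0.498% of the siCtrl libraries and 0.505% and 0.473% of the siFAM53C libraries. The part of the library split in the small shift of the list was not tested. The 3 called genes were lower on both sides. This follows for all 11 members in which both siFAM53C libraries lay below every control, so it does not set the called genes apart.

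**Figure D4:**
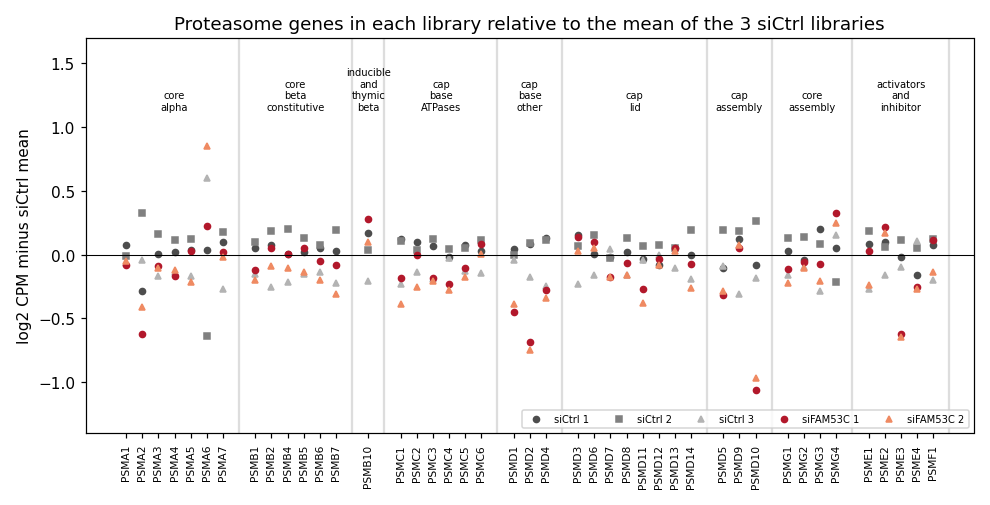
Log2 CPM of each tested proteasome gene in each library minus the mean of the 3 siCtrl libraries, by class; grey marks siCtrl, red and orange siFAM53C, and triangles the side of siCtrl 3 and siFAM53C 2. Most grey triangles lie below 0, as 38 of 43 members were lower in siCtrl 3 than in the other controls, and PSMD10, PSMD2 and PSME3 stand out with both siFAM53C libraries low.

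With a term for the split in the fit, 5 members were lower (PSMD10, PSMD2, PSME3, PSMD1 and PSMD11) and 0 higher. By that rule 9.73% of all genes were lower and 5.67% higher, against 5 and 0 of 43 members. The split was found in these libraries, and a fit with it describes them rather than an independent design.

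The genes that control, feed and complete the proteasome were followed through a list of 47 others, of which 44 were tested. DDI2 was lower in siFAM53C and none was higher, where 3.21% and 0.404% of all genes tested were called in these directions. The list had a median log2 fold change of -0.048. At an unadjusted p under 0.05, 4 were lower (DDI2, NFE2L2, USP14 and AKIRIN2) and 1 was higher (UBQLN4, at 0.26), where 10.5% and 6.54% of all genes passed in these directions, and DESeq2 and limma-voom called none higher.

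DDI2 is the aspartic protease that cuts NFE2L1 and so releases the active transcription factor of the proteasome genes. It had counts of 1187, 973 and 1125 in siCtrl and 639 and 538 in siFAM53C, which were 50.4, 50.9 and 58.9 against 24.2 and 22.8 CPM. Both siFAM53C libraries lay far below every control, and siCtrl 3 was here the highest. The log2 fold change was -1.18 with a 95% interval of -1.48 to -0.89 (edgeR quasi-likelihood, Benjamini-Hochberg adjusted p = 0.00378), and -1.07 and -1.36 within the sides. DDI2 was called with any of the 5 libraries left out. RSC1A1 lies on the same strand and shares 2197 exon bases with DDI2, so part of its reads fit either gene.

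The other genes of the NFE2L1 route did not pass the test. NFE2L1 itself had 399, 351 and 384.5 CPM in siCtrl and 320.1 and 326 in siFAM53C, lower in both, with a log2 fold change of -0.23 and a 95% interval of -0.48 to 0.028. NGLY1, which removes the sugars from NFE2L1 on its way to activation, was at -0.28. NFE2L2, a related factor of the oxidative stress response, was at -0.32 and passed with the term for the library split (adjusted p = 0.0196 by edgeR), as did USP14, a deubiquitinase bound to PSMD2, at -0.33 (adjusted p = 0.0182). The group of 8 genes for transcription and NFE2L1 processing had a median of -0.25, with 6 below 0 and 2 above. The 2 above were MAFK, at 0.45 with a 95% interval of -0.0082 to 0.91, and MAFG, at 0.0495.

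Other parts of the machine gave small values. POMP, the chaperone of the half-built core, was at 0.11, and ADRM1, a further ubiquitin receptor of the cap, at -0.27. SEM1, a small lid subunit, was at 0.32, with siCtrl 3 at 18.4 CPM and the other libraries at 34.9 to 39.4. UBB, which encodes ubiquitin, was at -0.21. IRF1, a regulator of the immunoproteasome, was at -0.39, with 45.5, 49.2 and 28.7 CPM in siCtrl and 35.3 and 27.3 in siFAM53C. TAP1, TAP2 and TAPBP, which load peptides and lie in the same region as PSMB8, had at most 4 counts in any library.

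The transcripts were searched for GACAAGA, a heptamer that had been tied to lower levels in siFAM53C in earlier work on these counts. It was present in the longest annotated 3′ UTR of 2 of the 43 tested members, PSME3 and PSMF1 (4.65%), against 11.6% of 12075 tested genes. In the whole canonical transcript 12 members held it (27.9%), against 29.5% of 12115 genes. Of the lower genes PSME3 held it in its 3′ UTR, PSMD2 had 2 matches in its coding sequence, and neither PSMD10 nor DDI2 had a match. Among the uncalled members of the 12, PSMD1 held it in the 3′ UTR of its canonical transcript, though not in its longest annotated 3′ UTR. PSMD4, also uncalled, had 2 matches in its coding sequence. The sites of PSME3, PSMF1 and PSMD2 are given on GRCh38 from GENCODE transcripts, 30 bases each, with the heptamer in capitals.
PSME3, base 553 of the 3′ UTR, chr17:42842120-42842149, plus strand: atcttgatcgtGACAAGAaataccttaggc
PSMF1, base 5728 of the 3′ UTR, chr20:1170797-1170826, plus strand: tgggactcaagGACAAGAgaggaaccttgg
PSMD2, coding sequence, chr3:184306422-184306451, plus strand: aggaagacaaaGACAAGAaggaaaagaaag
PSMD2, coding sequence, chr3:184306446-184306475, plus strand: agaaagacaagGACAAGAaggaagcccctg
PSMF1, with the site in its 3′ UTR, had 110, 113 and 90.5 CPM in siCtrl and 113 and 94.8 in siFAM53C, which overlapped, whereas PSME3 was among the genes that fell.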

How the data were processed

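Polyadenylated RNA of 5 RPE-1 libraries was sequenced in pairs. The authors used cutadapt 2.10 for trimming and HISAT2, set to reverse strandedness, for alignment to hg38, and deposited raw counts per Ensembl gene from featureCounts in 1 table with a column per library. The strand setting of the counting and the release of its annotation are not given in the sources used here, and the processing notes also list a mouse build, which was not used. Of 64252 identifiers 56105 matched GENCODE release 44, which gave symbols, exons and canonical transcripts.

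Low genes were removed by filterByExpr at a minimum count of 10 and a minimum total of 15, which left 15341. These were scaled by TMM and tested by quasi-likelihood (edgeR 4.0.16, R 4.3.3), and a Benjamini-Hochberg adjusted p under 0.05 was called. CPM used TMM library sizes, and log2 CPM per library had a prior count of 2. The methods of the study name DESeq2, which was run as an alternative (1.42.0), with limma-voom (limma 3.58.1), other scalings, no filter, replicate blocks, a term for the library split and the omission of each library. The code was tested on simulated data before use. Arrangements of 3 against 2 libraries are too few for a permutation test to reach the threshold, so none was run.

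The members, classes, pathway list and markers were chosen with earlier results of these data known, and so were the split and the heptamer. The genes named were FAM53C, the members by class, with values in each library for those called, the catalytic subunits and their inducible counterparts, and the 3 highest and 3 lowest fold changes, and the genes of the pathway list that were called or served as examples of a role. Values in each library of PSMD1, PSMD11, PSMF1, NFE2L1, SEM1 and IRF1 were added after they were seen.

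Replicates differed beyond sampling noise (chi-square per gene 9.31 for siCtrl 1 and 2, and 33.8 to 45.3 for the other pairs). Titles number siFAM53C 1 and 2, while library names give 1 and 3. Deviations from the group means correlated across genes at 0.169 for siCtrl 1 with siFAM53C 1, at -0.285 for siCtrl 2 with siFAM53C 2, and at 0.371 for siCtrl 3 with siFAM53C 2. With 2 siFAM53C libraries neither numbering can give 3 pairs. The pairs by library names, siCtrl 1 with siFAM53C 1 and siCtrl 3 with siFAM53C 2, both correlated positively. By titles, siCtrl 2 with siFAM53C 2 correlated negatively. The deviations of 2 libraries from their mean are mirror images, so each siCtrl library correlated equally and oppositely with the 2 siFAM53C libraries. siCtrl 2 with siFAM53C 1, a pair in neither numbering, was thus at 0.285. These signs are not separate evidence and do not decide between the numberings. Nothing stated that either numbering marks a pairing, so the main test was unpaired, and both numberings were run as replicate blocks. Some genes of the lists are not reported here.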

Additional observations from a re-analysis of the deposited data

How the results depend on the processing

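The direction of the 3 member calls and of DDI2 was the same in all fits, and 0 members were called higher in any. Lower calls numbered 3 with DESeq2 size factors, with library totals, without the filter and with limma-voom, and 4 in the DESeq2 Wald test, which added PSMD1. With the replicate block by titles they were 3 and with the replicate block by library names 4 (again PSMD1). Nothing stated that either numbering pairs the samples, and no member called in the main test was lost. With the term for the library split they were 5 of 43 tested members and 3 of 44 tested genes of the pathway list, where 9.73% of all genes were lower. siCtrl 3 and siFAM53C 2, 1 side of the split, both carry the number 3 in the library names. The split term and the block by library names thus put the same 2 libraries together and are not separate checks. Over the omissions of 1 siCtrl library the lower calls among the members ran from 0 to 5. Leaving out a siFAM53C library leaves 1, which is then assumed to vary like the controls. The cause was not tested. The median of the members ran from -0.191 (block by titles) to -0.019 (within the side of siFAM53C 2); library totals moved the median of all genes from 0.016 to 0.087, and the members stood at -0.050.

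In the fits with a test, signs changed only in uncalled members near 0. With library totals PSMA1 was at 0.0053, PSMA7 at 0.063, PSMB2 at 0.045, PSMB4 at 0.014, PSMB5 at 0.027, PSMD12 at 0.011 and PSMF1 at 0.062. With limma-voom PSMA7 was at 0.0026. With the replicate block by titles PSMC6 was at -0.026, PSMD3 at -0.034, PSMD6 at -0.0042, PSMD13 at -0.013 and PSMD9 at -0.092. With the replicate block by library names PSMA7 was at 0.089, PSMB2 at 0.073, PSMB4 at 0.052, PSMB5 at 0.020 and PSMF1 at 0.051. With the split term PSMA7 was at 0.044, PSMB2 at 0.028 and PSMF1 at 0.037. Over the omissions PSMA5 ran from -0.23 to 0.020, PSMA7 from -0.13 to 0.079, PSMB2 from -0.14 to 0.066, PSMB4 from -0.15 to 0.050, PSMB5 from -0.15 to 0.042, PSMC6 from -0.018 to 0.10, PSMD3 from -0.025 to 0.15, PSMD9 from -0.084 to 0.14, PSMD13 from -0.0046 to 0.066, PSME1 from -0.26 to 0.0098 and PSMF1 from -0.15 to 0.10.

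All genes called lower or higher numbered 493 and 62 in the main test, 376 and 98 with library totals, 987 and 420 without the filter, 890 and 257 in DESeq2, 734 and 257 with the block by titles, 1299 and 594 with the block by library names, and 1493 and 870 with the split term. With 5 libraries the median SE of a member was 0.125 on the log2 scale, and differences well above that size could be missed. PSMD1, at -0.42, was not called in the main test, and the smallest called difference of a member was -0.64 (PSME3). In simulated counts for all genes tested, edgeR recovered 46 of 100 genes changed by 1 on the log2 scale. Those genes were drawn from all genes tested, whose median SE was 0.198, and no library split was simulated. The share recovered is therefore not that of the members.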

Other observations

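Many proteasome genes have processed pseudogenes, copies of their transcripts inserted elsewhere in the genome. GENCODE lists 44 pseudogenes of any type for 17 of the members. Of these, 13 held counts, 749 in all, which was 0.128% of the 584026 counts on the members. PSMD12P1, with 11 counts, is listed as unprocessed. PSMC1P1 held 272 counts, 3.86% of those of PSMC1, PSMA6P1 held 194, 32.4% of those of PSMA6, and PSMD7P1 held 163, 2.095% of those of PSMD7. PSMA6, with the highest log2 fold change of the members, was thus also the member with the largest share of counts on a pseudogene copy, and reads that fit both places cannot be told apart in these counts.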
